A study of Mus musculus with 6 samples.

Results

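The genes described here encode core parts and regulators of the splicing machinery: SR proteins, hnRNPs, the SF3A and SF3B subunits, the Sm, U1 and U2 snRNP proteins and U2AF. They were taken by symbol, as every gene whose symbol starts with Srsf and a digit, with Hnrnp or Hnrp, with Sf3a or Sf3b and a digit, with Snrp, or with U2af, and that had a probe set naming 1 gene only. This gave 48 of the 12780 genes measured, of which 9 were SR proteins, 17 hnRNPs, 6 proteins of the Sm ring, 4 other U1 or U2 snRNP proteins, 9 SF3A or SF3B subunits and 3 U2AF genes. The symbol rule itself uses no value of either group, but it was chosen with earlier results of these data known. Of several probe sets per gene (11 genes) the one with the highest mean was used.

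RNA came from sorted migratory type 1 conventional dendritic cells (cDC1) of the skin-draining lymph nodes of wild-type C57BL/6 mice, cells that carry antigen from the skin and present it to CD8 T cells. The sort kept XCR1-positive, MHC II high, CD11c intermediate, CD40-positive cells and excluded B220, CD326 and Sirpa. A total of 3 samples were anti-CD40 stimulated and 3 were unstimulated, each hybridised to 1 Affymetrix array in 1 colour, and the study set the expression of these cells side by side with and without engagement of CD40, the receptor for the T cell protein CD40 ligand. The labels do not give the route, dose or duration of the stimulus or the age of the mice. They call the samples biological replicates but tie none to separate mice, so the tests reflect sample-to-sample spread that may be technical in part.

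Splicing removes introns from nascent RNA. The U1 snRNP recognises the start of an intron, U2AF the pyrimidine tract and the end of it, and the U2 snRNP with SF3A and SF3B the branch point between them. Sm proteins form the ring on which these particles are built. SR proteins bind exons and mostly favour their inclusion, while hnRNPs coat nascent RNA and often oppose it, so the balance of these regulators shapes which isoforms a cell makes. In lymphocytes, hnRNPLL and hnRNPL are known for controlling which exons of the CD45 RNA are kept on activation.

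Levels are given as log2 of the deposited intensity, differences as stimulated minus unstimulated on the same scale, so that 1 is a 2-fold change. Median intensity over all probe sets lay between 53.1 and 56.2 on stimulated arrays and between 51.9 and 56.3 on unstimulated ones, and the number of arrays limits the precision. All 9 genes of a cDC1, dendritic cell and sort list were measured: Xcr1, Cd40, Batf3, Irf8, Itgae, Clec9a, Zbtb46, Flt3 and Ccr7. Their summed intensity was 9586 to 16872 in stimulated and 8203 to 14883 in unstimulated samples. Ccr7, not among the sort markers above, was the brightest, at a log2 intensity of up to 12.87. Markers of other cells had lower sums, over fewer genes. The summed intensity was 89.6 to 138.5 in stimulated and 96.5 to 161.7 in unstimulated samples for B cells (3 of 6 listed genes measured). It was 158.2 to 298.3 and 137.1 to 227.9 for T cells (5 of 7), and 48.9 to 59.3 and 49.0 to 55.6 for cDC2, monocytes or macrophages (2 of 9). For keratinocytes and Langerhans cells (3 of 4) it was 90.7 to 109.9 and 82.4 to 95.6. For fibroblasts and endothelium (4 of 5) it was 127.6 to 188.9 and 151.2 to 190.1. The brightest of these markers was Cd5, of the T cell list, at up to 6.22, beside array medians of 5.63 to 5.80 over all genes. The T cell list had a median difference of 0.43, with 0 genes at an unadjusted limma p under 0.05. In bulk RNA, fewer cells of a type and less RNA per cell cannot be told apart.

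None of the 48 splicing factor RNAs passed the threshold between anti-CD40 stimulated and unstimulated cDC1. By limma with Benjamini-Hochberg adjustment over all genes, 0 members were higher and 0 lower at an adjusted p under 0.05, beside 0.0156% of all genes called in either direction (2 of 12780 genes, both higher). At an unadjusted p under 0.05 there were 0 members, beside 3.49% of all genes. The groups overlapped for all 48 members, whereas they did not overlap for 7.14% of all genes (stimulated above unstimulated for 3.68%, below for 3.46%). The smallest unadjusted p among the members was 0.0876, for Srsf10, and the limma adjusted p was 0.99997 for each member.

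The differences themselves were small. They ran from -0.45 to 0.43, with 27 positive and 21 negative and a median of 0.08, beside a median of 0.005 over all genes. By the probe set used, all 48 members differed by less than 0.5 in size, as did 92.6% of all genes. With the mean of a gene's probe sets, Sf3b4 differed by 0.58. The 95% interval lay within a 2-fold change in either direction for 32 of 48 members (77.9% of all genes), so for the other 16 a 2-fold difference was not outside what these arrays allow. The median SD within a group was 0.39 for members and 0.28 for all genes.

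**Figure D1:**
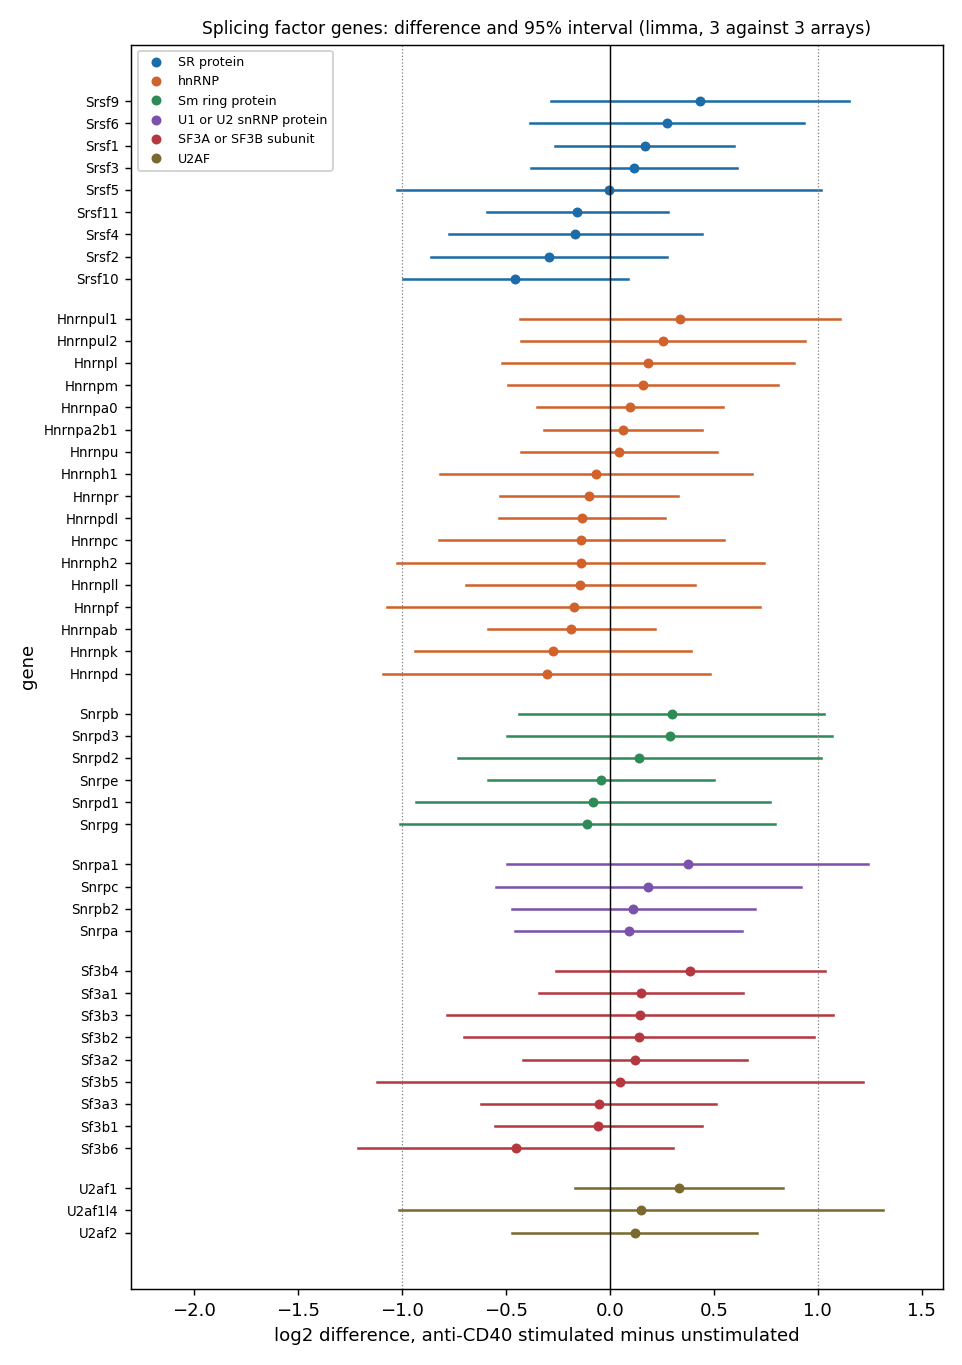
Log2 difference (anti-CD40 stimulated minus unstimulated, x axis) of each of the 48 splicing factor genes (y axis), with the 95% interval from limma as a bar and the role as colour. Every interval crosses 0, the point estimates stay between -0.45 and 0.43, and dotted lines mark a 2-fold change.

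Among the 9 SR proteins, 4 differences were positive and 5 negative, with a median of -0.004. Srsf10, an atypical SR protein that represses splicing when it is dephosphorylated, was at 9.10, 8.58 and 8.58 in stimulated samples 1, 2 and 3, and at 9.11, 9.53 and 8.98 in unstimulated samples 1, 2 and 3. Stimulated samples 2 and 3 lay below every unstimulated sample, while stimulated sample 1 lay within their range. Its difference was -0.45 ± 0.23 (SE, 95% interval -0.99 to 0.09, n = 3 each, limma adjusted p = 0.99997). A second probe set of Srsf10, at a mean of 4.79, differed by -0.44.

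Srsf2, the SR protein also called SC35 and a marker of nuclear speckles, was at 8.99, 9.46 and 9.04 in stimulated and 9.06, 9.51 and 9.79 in unstimulated samples. The ranges overlapped over most of their length, and the difference was -0.29 (95% interval -0.86 to 0.28). Srsf9, at the other end, was at 6.82, 7.36 and 7.78 in stimulated and 6.69, 6.62 and 7.35 in unstimulated samples. The highest value was in a stimulated sample and the 2 lowest in unstimulated samples, and the difference was 0.43 ± 0.31 (SE, 95% interval -0.28 to 1.15, n = 3 each, limma adjusted p = 0.99997).

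Srsf1, a founding SR protein that acts on many alternative exons, averaged 7.33 ± 0.21 in stimulated and 7.17 ± 0.15 in unstimulated samples (SD, n = 3 each). The difference was 0.17 (95% interval -0.26 to 0.60). Srsf3, a small SR protein that also serves mRNA export, averaged 10.88 ± 0.20 in stimulated and 10.77 ± 0.30 in unstimulated samples (SD, n = 3 each), a difference of 0.12 (95% interval -0.38 to 0.61). Its 3 probe sets did not share a sign, at 0.12, 0.15 and -0.13. For Srsf1 and Srsf3 the difference was smaller than the larger of the group SDs.

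Srsf5 averaged 9.53 in stimulated and 9.54 in unstimulated samples, with a wide spread within each group. Stimulated samples stood at 10.31, 9.12 and 9.16 and unstimulated samples at 10.27, 8.95 and 9.39, so sample 1 of each group was more than 2-fold above sample 2. Its interval was correspondingly wide, -1.02 to 1.02. Srsf6 was at 7.99, 7.03 and 7.74 in stimulated and 7.60, 7.10 and 7.23 in unstimulated samples and differed by 0.28 (95% interval -0.38 to 0.93). The 2 remaining SR proteins, Srsf4 and Srsf11, differed by -0.17 and -0.16.

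**Figure D2:**
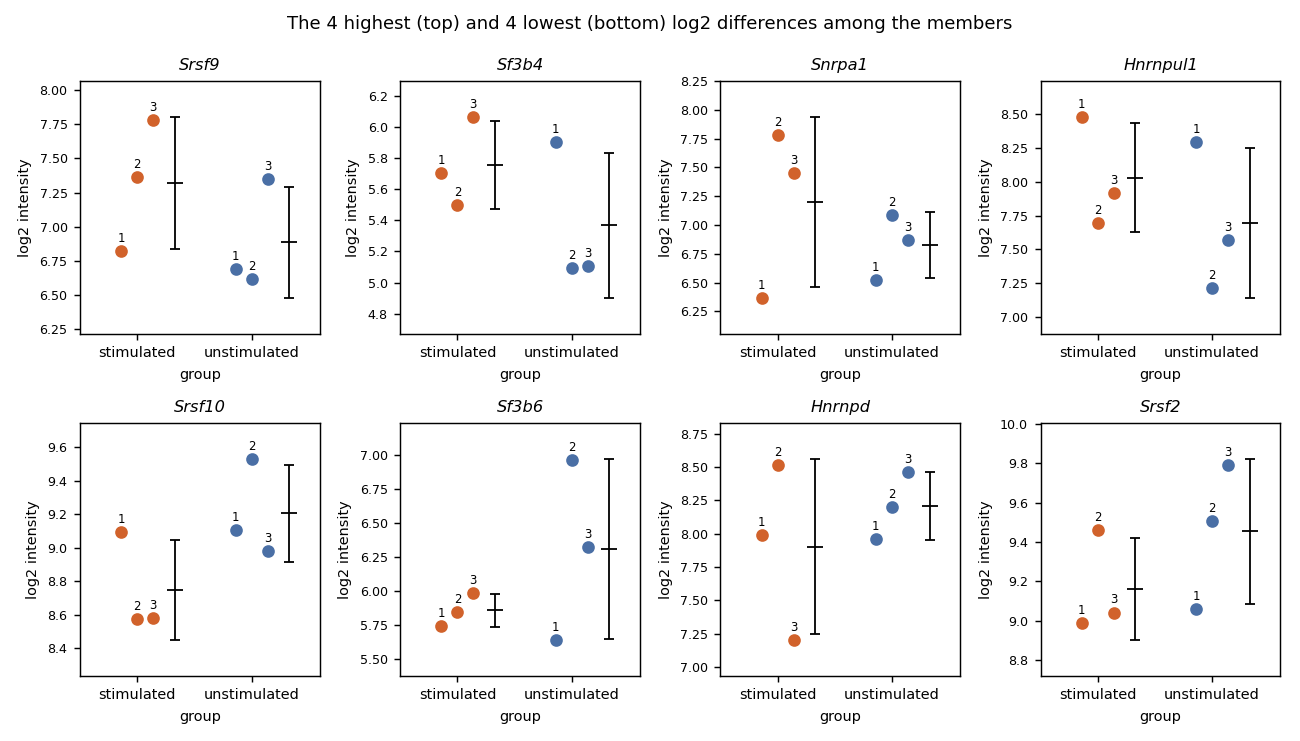
Log2 intensity (y axis) of the 4 members with the highest and the 4 with the lowest difference, in anti-CD40 stimulated (orange) and unstimulated (blue) samples, with replicate numbers above the points and the mean ± SD of 3 samples as bars. In all 8 panels the ranges of the groups overlap; Srsf10 and Srsf9 have the differences of -0.45 and 0.43.

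The 17 hnRNPs held 7 positive and 10 negative differences, with a median of -0.10 and a range of -0.30 to 0.34. Hnrnpd, whose protein AUF1 also binds AU-rich elements and promotes decay of cytokine RNAs, was at 7.99, 8.51 and 7.21 in stimulated and 7.96, 8.20 and 8.46 in unstimulated samples. Stimulated sample 3 alone lay below all others, and the difference of -0.30 (95% interval -1.09 to 0.48) became 0.04 without it. The same sample was lowest for the nuclear RNA Malat1, at an intensity of 1104, beside 3010 and 2348 in the other stimulated samples and 2695 to 2778 in unstimulated ones. Whether this plays a part in the value of Hnrnpd was not tested.

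Hnrnpul1 had the highest hnRNP difference, 0.34 (95% interval -0.43 to 1.11), with 8.48, 7.70 and 7.92 in stimulated and 8.30, 7.21 and 7.57 in unstimulated samples. Sample 1 was the highest in each group, and the ranges overlapped. Hnrnpul2, a related gene, differed by 0.26 and Hnrnpm by 0.16. Hnrnpk, which binds C-rich RNA and DNA, was at 10.45, 9.46 and 9.93 in stimulated and 10.54, 10.05 and 10.07 in unstimulated samples and differed by -0.27 (95% interval -0.94 to 0.39). Its other probe sets differed by -0.15 and -0.25.

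The CD45 exon regulators did not differ beyond their spread. Hnrnpll was at 6.08, 6.23 and 6.06 in stimulated and 6.06, 6.75 and 5.98 in unstimulated samples, a difference of -0.14 (95% interval -0.69 to 0.41). Hnrnpl was at 8.88, 7.98 and 8.67 in stimulated and 8.77, 8.04 and 8.17 in unstimulated samples, a difference of 0.18 (95% interval -0.52 to 0.89). For Hnrnpll 1 unstimulated sample lay above the rest, and for Hnrnpl samples numbered 2 were the lowest in both groups.

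The narrowest interval of the 48 belonged to Hnrnpa2b1, a nuclear hnRNP that also sorts RNAs for transport. It was at 9.84, 9.89 and 9.66 in stimulated and 9.77, 9.60 and 9.81 in unstimulated samples, and the fold was 1.05 (95% interval 0.804 to 1.36). Hnrnpu, also known as scaffold attachment factor A, averaged 8.41 ± 0.31 in stimulated and 8.37 ± 0.10 in unstimulated samples (SD, n = 3 each), a difference of 0.05 (95% interval -0.43 to 0.52). Hnrnpc, which binds U-rich tracts in introns, was at 8.33, 8.34 and 8.46 in stimulated and 8.15, 9.18 and 8.20 in unstimulated samples, and differed by -0.14 (95% interval -0.82 to 0.55). Unstimulated sample 2 stood apart from the other 5, and without it the difference was 0.20. The remaining 7 hnRNPs differed by -0.18 to 0.10. Of these, Hnrnpr and Hnrnpa0 were the 2 members with an intensity under 20 on at least 1 array, where background weighs most.

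The 6 Sm ring genes measured held 3 positive and 3 negative differences with a median of 0.05. Snrpb, which encodes the SmB protein, differed by 0.30 and Snrpd3, which encodes SmD3, by 0.29. Snrpd3 was at 8.51, 8.74 and 9.21 in stimulated and 8.05, 8.34 and 9.20 in unstimulated samples (95% interval -0.49 to 1.07), and sample 3 was the highest in each group. The difference was 0.62 without unstimulated sample 3 and 0.0471 without unstimulated sample 1. Snrpd2 differed by 0.14, Snrpe by -0.04, Snrpd1 by -0.08 and Snrpg by -0.11.

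All 4 proteins specific to the U1 or U2 snRNP had positive differences, from 0.09 to 0.37, and 0 of 4 passed the test. Snrpa1, a protein of the U2 snRNP, was at 6.37, 7.78 and 7.45 in stimulated and 6.52, 7.08 and 6.87 in unstimulated samples, with a difference of 0.37 (95% interval -0.49 to 1.24). Stimulated sample 1 was the lowest of the 6 and stimulated samples 2 and 3 the highest. The difference was 0.79 without stimulated sample 1 and 0.083 without stimulated sample 2. Snrpa, which binds a stem-loop of the U1 snRNA, averaged 7.97 ± 0.31 in stimulated and 7.88 ± 0.28 in unstimulated samples, and Snrpc, the U1 protein that helps recognise the 5′ splice site, 8.15 ± 0.59 in stimulated and 7.97 ± 0.26 in unstimulated samples (SD, n = 3 each). Their differences were 0.09 (95% interval -0.45 to 0.64) and 0.18 (-0.55 to 0.92). Without stimulated sample 3, where Snrpc was highest at 8.82, they were -0.08 and -0.15.

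Of the 9 SF3A and SF3B genes, 6 differences were positive and 3 negative (median 0.12). Sf3b1, the large subunit that holds the helix of U2 snRNA and branch point, was at 9.27, 8.74 and 8.70 in stimulated and 9.15, 8.86 and 8.86 in unstimulated samples, a difference of -0.05 (95% interval -0.55 to 0.44). Sf3a1, the largest SF3A subunit, differed by 0.15 (-0.34 to 0.64). Sf3b4, an RNA-binding subunit, was at 5.71, 5.50 and 6.06 in stimulated and 5.91, 5.10 and 5.10 in unstimulated samples. Only unstimulated sample 1 reached the stimulated range, and the difference was 0.39 ± 0.28 (SE, 95% interval -0.26 to 1.04, n = 3 each, limma adjusted p = 0.99997). A dimmer probe set of Sf3b4 differed by 0.77, with an unadjusted limma p of 0.0625 in a fit over all probe sets.

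Sf3b6, the small subunit known as p14 that lies beside the branch point, was at 5.75, 5.85 and 5.99 in stimulated and 5.65, 6.97 and 6.33 in unstimulated samples. The SD was 0.12 among stimulated and 0.66 among unstimulated samples, and the difference was -0.45 (95% interval -1.21 to 0.30). It was -0.13 without unstimulated sample 2 and -0.79 without unstimulated sample 1. Sf3b2, Sf3b3 and Sf3a2 differed by 0.14, 0.14 and 0.12, Sf3b5 by 0.05 and Sf3a3 by -0.05.

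The 3 U2AF genes had differences of 0.12 to 0.33. U2af1, the small subunit that reads the AG at the end of an intron, was at 6.12, 6.30 and 6.44 in stimulated and 5.80, 6.33 and 5.74 in unstimulated samples. Unstimulated sample 2 lay inside the stimulated range and the other unstimulated samples below it, with a difference of 0.33 ± 0.21 (SE, 95% interval -0.17 to 0.83, n = 3 each, limma adjusted p = 0.99997). U2af2, the large subunit that binds the pyrimidine tract, averaged 8.40 ± 0.42 in stimulated and 8.28 ± 0.23 in unstimulated samples (SD, n = 3 each), a difference of 0.12 (95% interval -0.47 to 0.71). U2af1l4, a paralogue of the small subunit, differed by 0.15.

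More of the variation in these genes followed the replicate number than the group. For each gene the squared deviations from its mean over the 6 arrays were split into a part for group (1 of 5 degrees of freedom), a part for replicate number (2 of 5) and a remainder. The median share of replicate number was 71.7% in the members and 60.2% over all genes, and that of group 7.5% in the members and 9.0% over all genes. Replicate number held more than group in 43 of 48 members and in 82.4% of all genes. The labels do not say what a number stands for.

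Of the 6 Sm ring genes, 5 were ordered alike on arrays 1 and 2. Snrpd1, Snrpd2, Snrpd3, Snrpe and Snrpg were lower on array 1 than on array 2 in both groups, and Snrpb was higher. Of all genes, 35.6% were lower on array 1 than on array 2 in both groups and 40.1% higher. Snrpd1 was at 7.07, 8.05 and 7.95 on stimulated arrays 1, 2 and 3 and at 7.18, 8.29 and 7.84 on unstimulated arrays 1, 2 and 3. Snrpg was at 8.07, 9.04 and 9.14 on stimulated and 8.21, 9.33 and 9.04 on unstimulated arrays. In each gene array 1 was the lowest of its group. Array 1 minus array 2 was -0.97 among stimulated samples for either gene, and -1.11 for Snrpd1 and -1.12 for Snrpg among unstimulated samples. These genes, and those named for this pattern next, were picked after their values were seen.

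By the probe set used, 7 of 9 SF3A and SF3B genes ran the other way, higher on array 1 than on array 2 in both groups. For Sf3b4, counted among the 7, the dimmer probe set was lower on array 1: 5.05 against 6.15 stimulated and 4.38 against 5.22 unstimulated. Sf3b3, the large scaffold subunit of SF3B, was at 7.43, 6.36 and 6.77 on stimulated and 7.39, 6.06 and 6.69 on unstimulated arrays. The exceptions were Sf3b5 and Sf3b6, which encode small SF3B subunits. Array 1 minus array 2 was -0.76 among stimulated and -1.91 among unstimulated samples for Sf3b5, and -0.10 and -1.32 for Sf3b6. By the probe sets used, the 9 genes were thus not all ordered alike on arrays 1 and 2. Over all genes, 40.1% were higher and 35.6% lower on array 1 in both groups.

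The hnRNPs and SR proteins were split: 8 of 17 and 4 of 9 were higher on array 1 in both groups, and 6 of 17 and 2 of 9 lower. Srsf3 was among the 4, but its dimmest probe set was lower on array 1: 7.28 against 7.91 stimulated and 7.05 against 8.23 unstimulated. Hnrnpf, which binds G-rich RNA, was at 9.27, 8.14 and 8.14 on stimulated and 9.27, 8.36 and 8.43 on unstimulated arrays, and its relative Hnrnph1 at 9.08, 8.25 and 8.58 on stimulated and 9.24, 8.22 and 8.65 on unstimulated arrays. Both, like Srsf5, stood highest on array 1 of each group. The interquartile range of log2 intensities over the genes was also widest on arrays numbered 1 (2.31 stimulated, 2.19 unstimulated) and narrowest on those numbered 2 (1.75 and 1.74). The summed intensity of the listed cDC1, dendritic cell and sort genes followed the same order, with 16872 and 14883 on arrays 1 and 9586 and 8203 on arrays 2. The part of either in the order of the members across arrays was not tested. A fit of the group difference with the interquartile range as covariate is given in the last section.

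**Figure D3:**
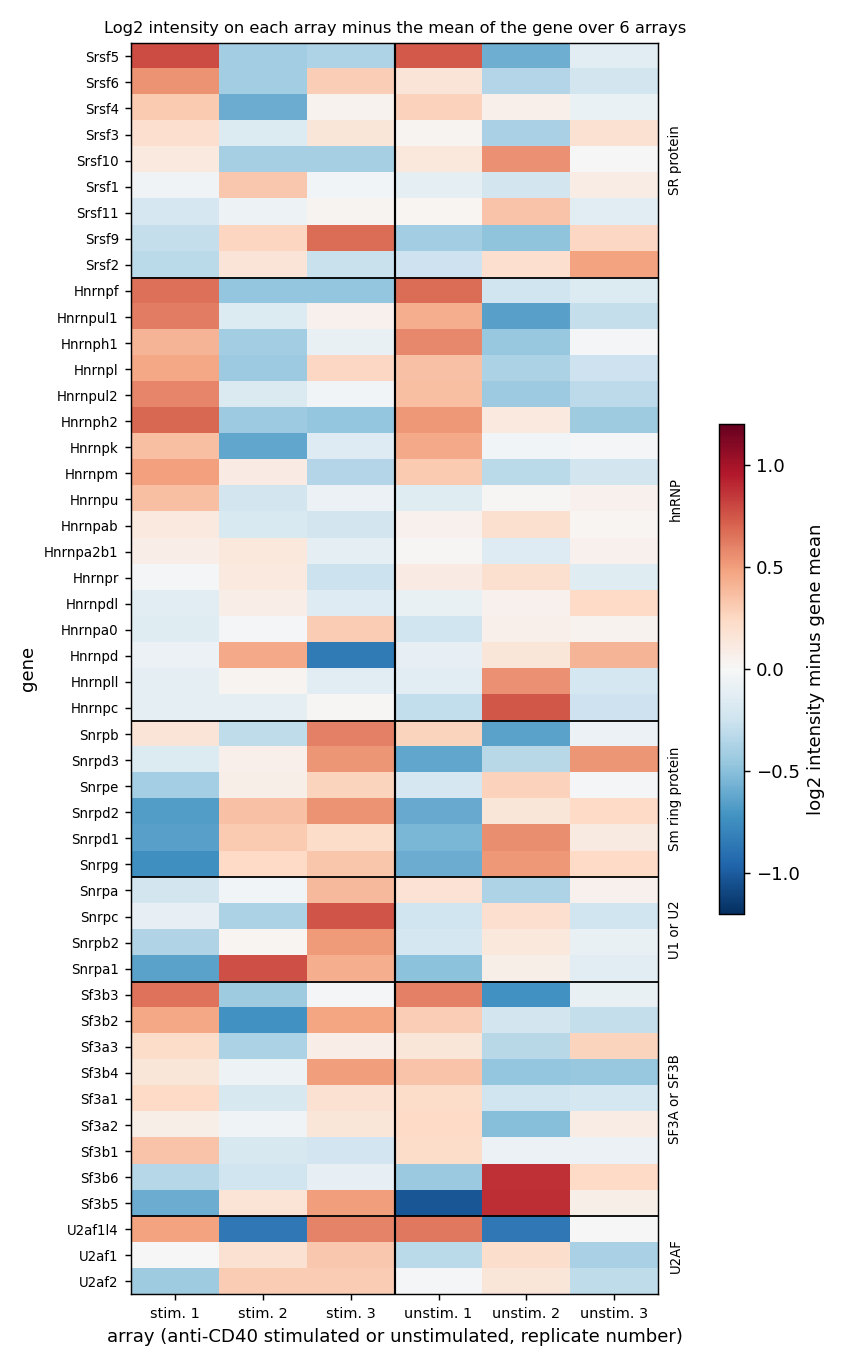
Log2 intensity of each member minus its own mean over the 6 arrays (colour) on the anti-CD40 stimulated (left) and unstimulated (right) arrays (x axis), with genes (y axis) grouped by role and ordered by their difference between arrays 1 and 2. Snrpd1, Snrpd2 and Snrpg are low on array 1 of each group, and Srsf5, Hnrnpf, Hnrnph1 and Sf3b3 are high there.

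**Figure D4:**
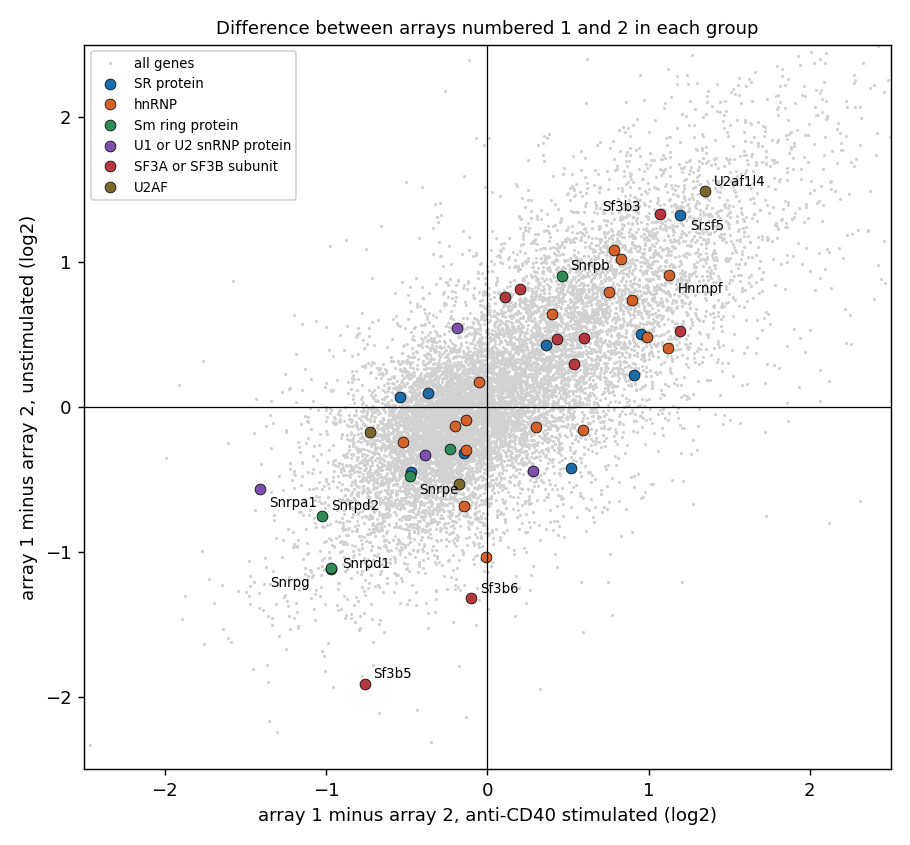
Array 1 minus array 2 in log2 intensity among anti-CD40 stimulated (x axis) and unstimulated samples (y axis), for all genes (grey, those beyond the axes not drawn) and the members by role (colour). Of the 48 members, 21 lie in the upper right and 19 in the lower left of the plot; Snrpd1, Snrpg and Sf3b5 are among the lower left, U2af1l4, Srsf5 and Sf3b3 among the upper right.

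Splicing genes outside the symbol rule were similar. Of 172 genes in 8 lists, 153 were measured, with 90 positive and 63 negative differences, a median of 0.06, and 0 called by limma at an adjusted p under 0.05. At an unadjusted p under 0.05 there were 4 of 153 (2.61%, beside 3.49% of all genes), and the groups did not overlap for 9 (5.88%, beside 7.14%). The 4 were Snw1, Isy1, Smg8 and Snupn, and the limma adjusted p over all genes was 0.99997 for each of them.

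Kinases of SR proteins and their importer, which set where SR proteins reside and how active they are, had a median of -0.11 over 8 genes, with Dyrk1a at -0.27 and Prpf4b at -0.20. SR-related coactivators (17 genes) had a median of -0.001, with Tra2b, a partner of SR proteins on exonic enhancers, at 0.47 (95% interval -0.17 to 1.103) and Scaf4 at -0.33. The snRNP and Lsm proteins not covered by the rule (23 genes) had a median of 0.002, with Sart3, which recycles the U6 snRNP, at 0.40 and Prpf31 at 0.42.

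Genes of Sm ring assembly (16) had a median of 0.13, with 13 positive and 3 negative. Snupn, the adaptor that imports assembled snRNPs into the nucleus, was at 5.55, 5.80 and 5.96 in stimulated and 5.002, 5.602 and 5.09 in unstimulated samples and differed by 0.54 (95% interval 0.02 to 1.06). Smn1, which loads Sm proteins onto snRNA, differed by 0.41 (-0.08 to 0.91). Partners of the U2 snRNP (15 genes, median 0.05) had the largest statistics for Prpf40b at 0.39 and Rbm10 at 0.53, each with stimulated values above every unstimulated one.

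In the catalytic step and PRP19 complex list (31 genes, median 0.09, 23 positive and 8 negative), the 2 genes with the largest statistic had opposite signs. Snw1, also called SKIP, was at 7.65, 7.36 and 7.80 in stimulated and 7.20, 7.07 and 6.95 in unstimulated samples, a difference of 0.53 (95% interval 0.10 to 0.96). Isy1 was at 6.31, 5.40 and 5.80 in stimulated and 6.80, 6.38 and 6.46 in unstimulated samples, a difference of -0.71 (95% interval -1.33 to -0.10). The groups did not overlap for either gene, and neither passed over all genes.

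Other splicing regulators (29 genes) had a median of -0.07, with Celf2 at -0.56 (95% interval -1.24 to 0.11) and Taf15, an RNA-binding protein, at -0.34 with no overlap between groups. The exon junction complex and nonsense-mediated decay list (14 genes) had a median of 0.16. It also held Nxf1, Alyref, Ddx39a and Ddx39b, genes of mRNA export. Nonsense-mediated decay removes SR protein transcripts carrying a premature stop. Smg8, a regulator of the SMG1 kinase, was at 5.92, 5.75 and 6.11 in stimulated and 5.53, 5.40 and 5.55 in unstimulated samples and differed by 0.44 (95% interval 0.04 to 0.83), and Casc3 differed by 0.51.

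**Figure D5:**
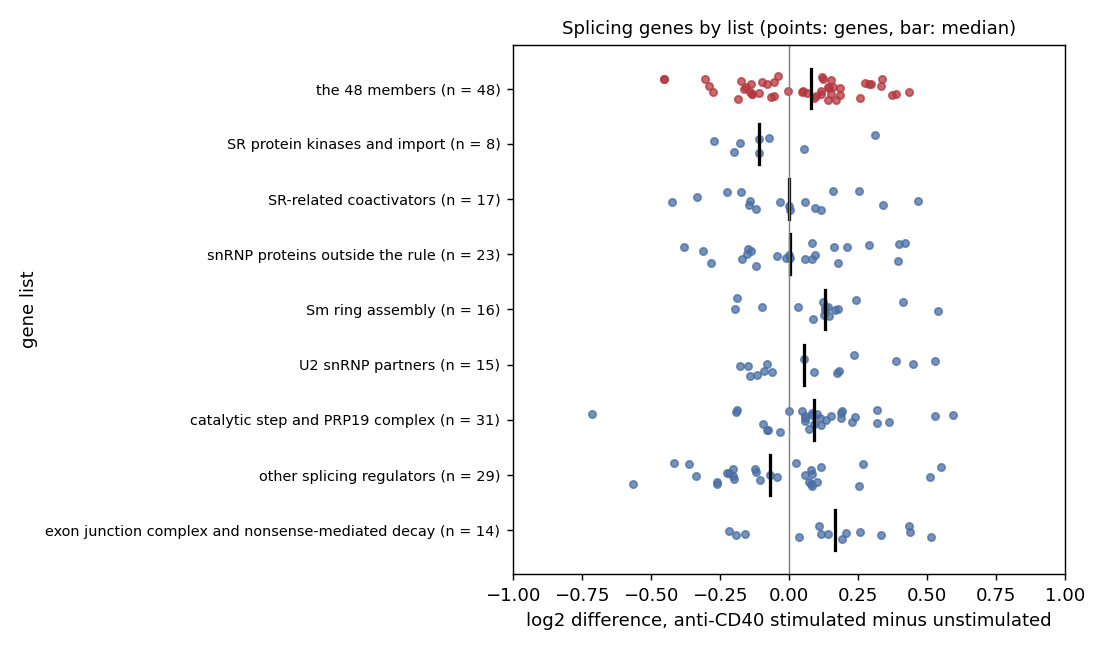
Log2 difference (anti-CD40 stimulated minus unstimulated, x axis) of the 48 members (red) and of the genes in 8 further splicing lists (blue, y axis), with the median of each list as a black bar; vertical scatter has no meaning. Medians run from -0.11 for SR protein kinases and import to 0.16 for the exon junction complex and nonsense-mediated decay, and Isy1 at -0.71 is the lowest point.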

How the data were processed

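RMA in Affymetrix Expression Console made the values, per the submitters' processing notes, and the authors deposited 1 table of intensity values for 17551 probe sets on 6 arrays. The values (6.97 to 13701) are on a linear scale, so log2 was taken before testing; the labels name no version, setting or background level. For every probe set the higher group mean (geometric) was at least 20.0, so genes dim in both groups may be missing here; all 48 members were at or above 20 in both groups. The platform annotation names 1 gene for 13963 probe sets, and the probe set with the highest mean was used per gene. Of 56 protein-coding RefSeq symbols (GRCm38.p6) that match the symbol rule, 48 were measured in this way. The other 8, Hnrnpa1, Srsf7 and Snrpn among them, were not analysed here; 17 probe sets that name a matching symbol beside another gene differed by -0.25 to 0.15, with 0 called by limma. Near-identical copies of these genes could share probes.

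The fit used lmFit and eBayes of limma 3.58.1 under R 4.3.3 (two-sided, no covariates, Benjamini-Hochberg adjustment over 12780 genes). The procedure was tested on simulated data with independent noise and no structure by replicate number. At a limma adjusted p under 0.05 it called 36 of 100 genes with a log2 difference of 1 and 91 of 100 with 2. It also called 8 of 12580 unchanged genes. These shares depend on how many genes change in the simulated table, so they may not hold for these arrays. Differences as small as those of the members were not simulated. Named were members with an unadjusted p under 0.05, the 4 highest and 4 lowest differences, fixed members, and per list any that passed or else the 2 with the largest statistic. Members and lists were chosen with earlier results of these data known. Alternatives covered the variance model, normalisation, centring, array weights, replicate block, array spread, dim genes, probe sets and leaving out arrays. Figures used matplotlib 3.10.9 in Python 3.11.15.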

Additional observations from a re-analysis of the deposited data

How the results depend on the processing

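Under each of 14 alternative settings, and in 3 fits chosen after seeing the data that leave out both arrays of a replicate number, 0 members were higher and 0 lower at a limma adjusted p under 0.05, and the lowest adjusted p of a member over the 14 was 0.131, with array weights. The median of the members lay between 0.0017 and 0.11 over the 14 settings, and was -0.0034 without both arrays numbered 3. Members with an unadjusted limma p under 0.05 (0 as reported) numbered 8 with array weights, where 19.5% of all genes had one. They numbered 2 with the interquartile range as a covariate (7.91% of all genes). With the mean of a gene's probe sets there was 1, Sf3b4 (3.5%). When 1 array was left out they numbered 0 to 2 (2.01% to 5.83%). They numbered 4 without both arrays numbered 1 (4.71%) and 0 without both numbered 2 or 3 (3.13% and 1.14%). Genes called over the whole table (2 higher, 0 lower) were 5 and 1 after quantile normalisation again, 3 and 1 after centring on medians, 28 and 18 with array weights, 11 and 4 with that covariate, and 0 and 0 without any 1 array. With the replicate number as a block, 30 genes were higher and 8 lower over the whole table, and 0 members were called. Among members, only Srsf9 had an unadjusted limma p under 0.05 there, beside 10.4% of all genes. Deviations from the group means correlated at 0.73, 0.59 and 0.06 between the 2 arrays numbered 1, 2 and 3. Between array 1 of one group and array 2 of the other they correlated at -0.69 and -0.60. The labels do not say that the numbers pair the samples, so the main fit has no block.

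The sign of the differences was not stable: 33 of 48 members had the opposite sign in at least 1 of the 14 settings. Array weights turned Hnrnpa2b1 to -0.0702, Hnrnpc to 0.14, Hnrnpll to 0.0362, Hnrnpu to -0.0612, Snrpd3 to -0.0237, Srsf1 to -0.0236 and Srsf3 to -0.0181. These weights were 6.14 for unstimulated sample 3 and 2.20 for stimulated sample 3, beside 0.48 to 0.59 for every other sample. Quantile normalisation again turned Hnrnpu to -0.0219. Leaving out 1 array gave -0.32 to 0.20 for Hnrnpc, -0.61 to 0.0437 for Hnrnpd, -0.0001 to 0.45 for Hnrnpl, -0.28 to 0.10 for Hnrnpll, -0.13 to 0.17 for Hnrnpu, -0.24 to 0.0461 for Sf3b1, -0.0805 to 0.22 for Snrpa, -0.15 to 0.42 for Snrpc, -0.0493 to 0.24 for Srsf3, -0.39 to 0.36 for Srsf5 and -0.0012 to 0.36 for U2af2. The cause was not tested. Other named members kept their sign without any 1 array, but most moved by over 1.5 times: Snrpa1 to between 0.083 and 0.79, Sf3b6 to between -0.79 and -0.13, Snrpd3 to between 0.0471 and 0.62, Hnrnpa2b1 to between 0.0022 and 0.13, Hnrnpk to between -0.53 and -0.0315, Hnrnpul1 to between 0.0957 and 0.64, Sf3a1 to between 0.067 and 0.30, Srsf6 to between 0.0754 and 0.55, Srsf1 to between 0.0485 and 0.25, Srsf2 to between -0.49 and -0.12, Srsf9 to between 0.21 and 0.68, Srsf10 to between -0.63 and -0.29, Sf3b4 to between 0.23 and 0.66 and U2af1 to between 0.22 and 0.52.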
